A study of Mus musculus with 198 samples.

Results

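The cytosolic ribosomal protein genes encode the proteins of the 40S and 60S ribosomal subunits that translate nuclear messages in the cytoplasm. Members were taken by name, as every feature called Rpl or Rps followed by a number (with an optional letter a, l, x or y and a further number) plus Rplp0, Rplp1, Rplp2 and Rpsa, with names ending in -ps left out. This gave 88 genes of 56332 features in the count table. Of these, 46 were canonical proteins of the large subunit, 31 were canonical proteins of the small subunit and 11 were paralogs (Rpl3l, Rpl10l, Rpl39l, Rpl22l1, Rpl7l1, Rpl6l, Rps27l, Rps4l, Rps12l1, Rps3a2 and Rps3a3). Of the paralogs, 5 (Rpl6l, Rps12l1, Rps3a2, Rps3a3 and Rps4l) carried a pseudogene biotype in GENCODE M21, and the other 83 were protein coding.

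The C57BL/6 mice of the study had been treated for 17 weeks, either with a control or with anti-PAPP-A antibody. The antibody's target, PAPP-A, is a secreted protease that cleaves IGF-binding proteins and so frees insulin-like growth factors. The control group held 12 mice (6 of each sex) and the anti-PAPP-A group 10 mice (5 of each sex), and each mouse gave spleen, bone marrow, skin, subscapular fat, gonadal fat, heart, lung, kidney and liver, so that 22 total RNA libraries were made per tissue, from whole tissue. The genotype beyond the strain, the age of the mice and the nature of the control are not stated in the labels, and both groups share the strain and the duration.

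A ribosome holds each of these proteins once, apart from the acidic stalk proteins, and cells make them in matched amounts. Most of their messages begin with a run of pyrimidines, the 5′ terminal oligopyrimidine (TOP) tract, through which growth signals acting on mTOR control their translation. A few paralogs replace the common protein in particular tissues: Rpl3l takes the place of Rpl3 in striated muscle, and Rpl10l and Rpl39l are best known from male germ cells.

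The coding sequences decide how well a count can be assigned to a member. Over the first 90 bases of the coding sequence, Rpl3l differs from Rpl3 throughout, as does Rps27l from Rps27, whereas Rps12 and Rps12l1 are identical. Each sequence is from GENCODE M21 transcripts on GRCm38 (mm10), 5′ to 3′, and capitals mark the bases of the paralog that differ from the gene printed above it.
Rpl3: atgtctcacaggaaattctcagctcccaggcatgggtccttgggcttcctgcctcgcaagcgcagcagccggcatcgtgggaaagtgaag
Rpl3l: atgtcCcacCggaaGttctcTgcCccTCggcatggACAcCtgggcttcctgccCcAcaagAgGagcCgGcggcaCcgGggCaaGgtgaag
Rps27: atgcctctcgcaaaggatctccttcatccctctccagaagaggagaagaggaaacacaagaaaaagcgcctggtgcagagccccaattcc
Rps27l: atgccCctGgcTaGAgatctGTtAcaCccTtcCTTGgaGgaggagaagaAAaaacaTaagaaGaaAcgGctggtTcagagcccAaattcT
Rps12: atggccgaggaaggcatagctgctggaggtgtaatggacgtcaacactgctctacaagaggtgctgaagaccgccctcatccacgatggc
Rps12l1: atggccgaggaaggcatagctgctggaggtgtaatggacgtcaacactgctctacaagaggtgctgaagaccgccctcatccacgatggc
Rpl3l lies at chr17:24727820-24736143 on the plus strand with 10 exons, and 73.4% of the 1209 coding bases of Rpl3 are equal in it. Rps12l1 is a single-exon copy at chr7:56014016-56014414 on the plus strand, and all 396 coding bases of Rps12 are equal in it. In 83 protein-coding members, a median of 96.3% of the 31-base words of the coding sequence also occurred in transcripts of other genes, mostly processed pseudogenes. This share was 50% or more in 76 of the 83 members and 0 in 1 member, Rpl3l. Counts of nearly all members are therefore uncertain in how they were divided between a gene and its copies. This division can also differ between samples, which affects comparisons across samples as well as absolute levels. Rpl10, for example, held a mean of 26.9% of its sum with the copy Rpl10-ps3 in marrow and 8.07% in kidney.

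The second set of sequences shows the start of 5 members on which later results turn. Capitals mark the longest unbroken run of C and T letters that overlaps the window, read on the strand of the gene. Each window holds 30 bases before the annotated start and 24 bases from it on, from RefSeq on GRCm38.p6.
Rpl28, chr7:4792935-4792988, plus strand: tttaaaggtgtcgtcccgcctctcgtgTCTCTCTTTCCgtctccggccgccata
Rpl35, chr2:39005108-39005161, minus strand: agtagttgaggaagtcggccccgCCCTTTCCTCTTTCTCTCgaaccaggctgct
Rps24, chr14:24490648-24490701, plus strand: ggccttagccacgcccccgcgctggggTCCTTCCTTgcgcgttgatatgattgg
Rpl34, chr3:130730314-130730367, minus strand: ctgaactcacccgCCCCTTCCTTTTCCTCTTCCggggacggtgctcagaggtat
Rps18, chr17:33955642-33955695, minus strand: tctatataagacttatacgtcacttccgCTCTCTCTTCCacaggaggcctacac
A run of 8 or more C or T letters on the gene's strand lay within 30 bases of the start in 37 of 75 member windows (49.3%), which belong to 63 members. The same was found in 7535 of 32851 windows of all genes (22.9%). Many members also carry small nucleolar RNAs in their introns: 30 of the 83 protein-coding members held at least 1 annotated snoRNA (36.1%), against 259 of 22028 protein-coding genes (1.18%).

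Library totals ran from 4138419 to 19517950 counts, of which 47.4% to 99.5% fell on 9 abundant features, each with a mean share of at least 0.9%. The counts outside these 9 are called usable counts here, and levels are given as CPM, in which the usable counts of each library sum to 1e6. Usable counts ran from 33377 to 4694597 per library, and 29 to 86 members were detected. In all, 6 libraries stood apart from their tissue: 1 of gonadal fat (mouse 58), 2 of heart (mice 22 and 56), 1 of lung (mouse 68), 1 of skin (mouse 36, the library with 33377 usable counts) and 1 of subscapular fat (mouse 20). The heart libraries of mice 22 and 56 held 3635 and 2386 CPM of 5 heart markers against a tissue median of 27780 CPM, the lung library of mouse 68 held 9.93 CPM of 5 lung markers against 25766 CPM, and the subscapular fat library of mouse 20 held 1149 CPM of 5 B cell markers against 3.94 CPM. In each of the 9 tissues all 5 defining markers had a control median above 1 CPM. Sex and any handling step that followed sex cannot be told apart. The p-values for treatment and for sex within a tissue measure the spread between these mice. Those of the tissue tests, and of the test of sex between spleen and subscapular fat, measure the spread between libraries. They treat libraries of the same mouse as separate unless a mouse block is named.

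Together the members took the largest part of the usable counts in spleen and the smallest in liver. The share in control mice was 2.77% ± 0.35 (SD, n = 12) in spleen, 2.25% ± 0.33 in skin and 1.65% ± 0.27 in gonadal fat. It was 1.51% ± 0.24 in lung, 1.40% ± 0.32 in bone marrow and 1.32% ± 0.53 in subscapular fat. The lowest shares were 1.05% ± 0.18 in kidney, 1.03% ± 0.18 in heart and 0.928% ± 0.134 in liver. Spleen and liver did not overlap, with 2.05% as the lowest control spleen and 1.11% as the highest control liver, whereas neighbours in this order overlapped. In bulk tissue, fewer cells of a type and less RNA per cell cannot be told apart.

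**Figure D1:**
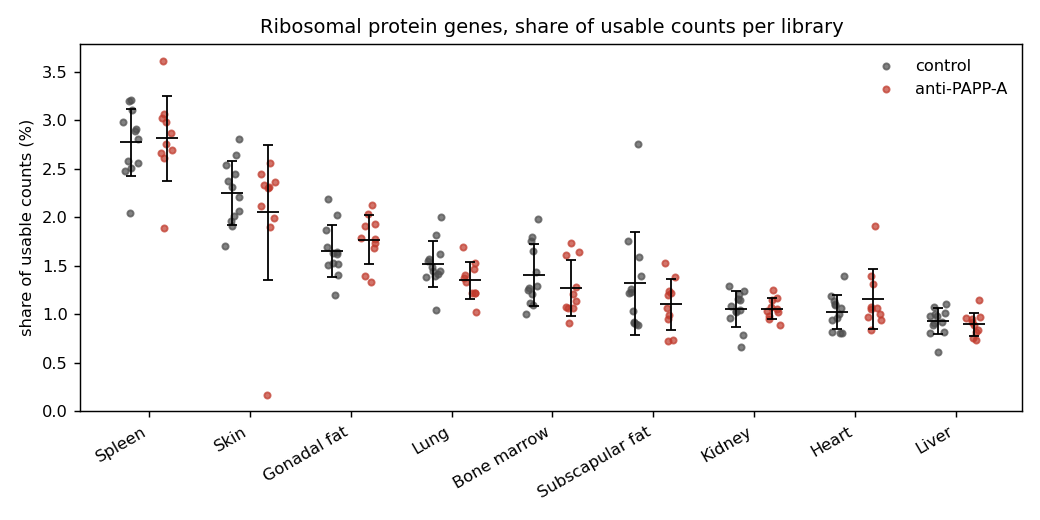
Share of usable counts (%) held by the ribosomal protein genes in each library, by tissue and treatment; horizontal marks and bars are the mean and SD over 12 control or 10 anti-PAPP-A mice. Spleen (2.77% in controls) and skin (2.25%) lie highest and liver (0.928%) lowest, and the skin library at 0.168% is the 1 with 33377 usable counts.

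The first comparison asked how the members differed between tissues of control mice. Each tissue was set against the mean of the other 8 in the libraries of the 12 control mice, with edgeR's quasi-likelihood test, TMM scaling and an adjusted p below 0.05 over 17968 genes. In spleen, 62 of 82 members tested were higher and 3 lower, against 31.1% and 34.3% of all genes tested, with a median log2 difference of 0.58 (all genes -0.08). In skin, 64 were higher and 2 lower, against 31.6% and 32.9%, with a median of 0.46 (all genes -0.06). Kidney was the reverse, with 4 higher and 54 lower, against 32.0% and 27.6%, and a median of -0.40 (all genes -0.03).

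Both subunits took part in these differences. In spleen, 24 of 31 small subunit and 38 of 46 large subunit genes were higher, and no canonical gene was lower. Rps24, a 40S protein mutated in Diamond-Blackfan anaemia, had a median of 794 CPM in control spleens (520.0 to 1105), and between 110.0 and 173 CPM in control livers. The 2 groups did not overlap, and its log2 difference in spleen was 1.22 ± 0.10 (SE, adjusted p = 2.27e-20). Rps15a (1.03 ± 0.13) and Rpl12 (1.03 ± 0.15) followed in spleen. In skin the leading canonical genes past the threshold were Rps12, Rplp0 and Rpl12. Rplp0, the scaffold of the ribosomal stalk and a common reference gene, had a median of 1208 CPM in control skin (953 to 1707) and of 296 CPM in control liver (163 to 390), with no overlap. Its log2 difference in skin was 1.26 ± 0.10 (adjusted p = 6.94e-23). In kidney, Rpl12 (-1.17 ± 0.19) and the stalk protein gene Rplp2 (-0.93 ± 0.11) were lowest among the canonical genes.

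Bone marrow differed from the other tissues in the balance between members as well as in their level. There 12 of 82 members were higher and 44 lower, against 37% and 42.5% of all genes, with a median of -0.42 (all genes -0.19). Rpl34, a large subunit gene, had a median of 230 CPM in control marrow (129 to 412) against 179 CPM in control spleen (122 to 235), and its log2 difference in marrow was 1.10 ± 0.12 (adjusted p = 3.7e-14). Rps2, a small subunit gene, had a median of 152 CPM in marrow (100.5 to 292) against 524 CPM in spleen (436 to 615), with no overlap, and a difference of -1.52 ± 0.12 (adjusted p = 2.4e-22). Rpl37 fell by 1.5 ± 0.15 on the log2 scale. Taking each of 73 well counted canonical members relative to its own mean over tissues and to the family's median in the tissue, the interquartile range of these deviations was 0.86 log2 in marrow and 0.15 to 0.29 log2 in the other 8 tissues. In marrow 29 of the 73 lay more than 0.5 log2 from the family's median, with Rpl34 at 1.37 and Rps2 at -0.96 as the extremes. The next highest number was 5, in heart. The titles of the 22 marrow libraries have another form than those of the other 176, and a difference between marrow and how its libraries were made cannot be told apart.

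In lung 1 member was higher and 34 lower, against 27.8% and 28.0%, with a median of -0.23 (all genes -0.08). The numbers in heart were 14 higher and 11 lower (32.7% and 28.3% of all genes), in liver 10 and 9 (29.4% and 34.6%), in gonadal fat 9 and 5 (29.4% and 25%) and in subscapular fat 9 and 2 (33% and 18.2%), with medians between -0.03 and 0.05. With the mouse as a block, since each mouse gave all 9 tissues, 2 of 82 members were higher and 18 lower in lung. Of the 19801 genes in that fit, 6225 were higher and 3646 lower in lung. The members' numbers were 9 and 15 in heart (5801 and 5879 genes), where the median became -0.02, and 8 and 15 in liver (5209 and 6970). They were 12 and 3 in gonadal fat (5884 and 4044), 7 and 4 in subscapular fat (5837 and 3614) and 2 and 62 in kidney (5614 and 5837). Scaling by usable counts in place of TMM moved the all-gene median to -0.62 in heart, -0.82 in liver, 0.26 in lung and 0.40 in spleen. The members' median then was -0.56 in heart, -0.73 in liver and 0.11 in lung. The medians of heart and lung thus turned their sign with the scaling, while spleen (1.08), skin (0.66), kidney (-0.51) and marrow (-0.10) kept theirs. Without the libraries that stood apart the heart median was -0.01, with 12 higher and 17 lower.

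The mitochondrial ribosomal protein genes, which encode the separate ribosome of mitochondria, were arranged differently over the tissues. In heart 73 of 78 were higher and 0 lower (median 1.09), and in subscapular fat 73 were higher and 0 lower (median 0.78). In kidney 54 were higher and 1 lower (0.51). In spleen 0 were higher and 69 lower (-0.67), and in skin 2 were higher and 56 lower (-0.58). Spleen and skin, with the highest cytosolic medians, thus had negative mitochondrial medians, and in kidney the signs were the other way round. In lung and marrow both sets had negative medians (mitochondrial -0.70 and -0.98).

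**Figure D2:**
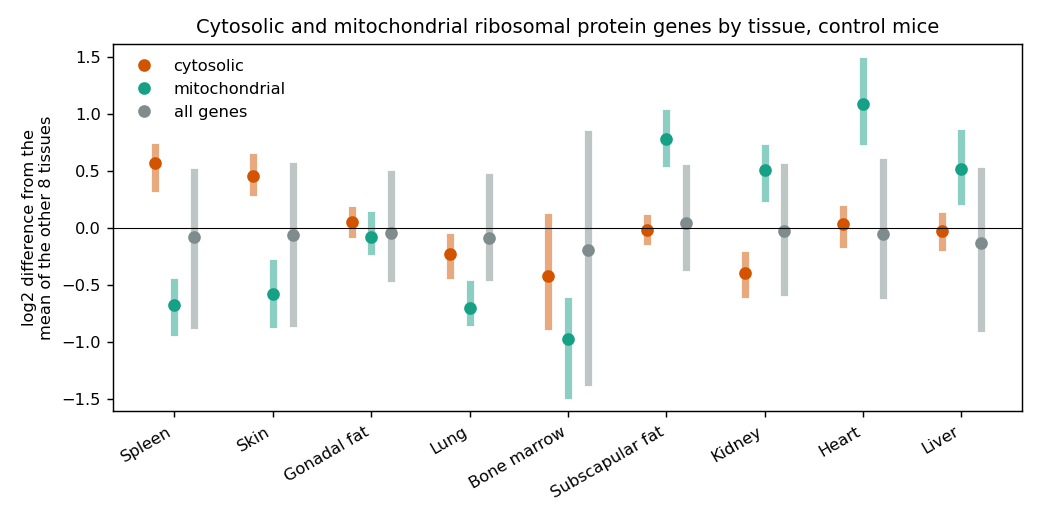
Log2 difference of each tissue from the mean of the other 8 in control mice, for cytosolic (82) and mitochondrial (78) ribosomal protein genes and all 17968 genes tested; points are medians and bars run from the lower to the upper quartile. Cytosolic genes lie highest in spleen (0.58) and skin (0.46), and mitochondrial genes in heart (1.09) and subscapular fat (0.78).

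Of 18 other genes whose messages carry TOP tracts (elongation factors, Pabpc1, Tpt1, Rack1 and the like), 13 were higher and 1 lower in spleen, and 14 were higher and 0 lower in skin. In lung 0 were higher and 15 lower, and in marrow 3 were higher and 14 lower. Of 26 ribosome biogenesis genes (nucleolar proteins and RNA polymerase I factors), 14 were higher and 4 lower in spleen, 21 higher and 2 lower in skin, and 1 higher and 22 lower in lung. Of 13 genes of mTOR signalling and translation control, 1 was higher and 8 lower in spleen, 7 were higher and 2 lower in skin, and 1 higher and 11 lower in lung.

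Rpl3l was highest in heart and, in some libraries, in subscapular fat. Its control median was 66.3 CPM in heart (0 to 97.1), 4.53 CPM in subscapular fat (0 to 99.8) and 2.94 CPM in marrow (0 to 12.5). In gonadal fat, liver, lung, skin and spleen the control median was 0, with 1 to 5 of 12 libraries above 0, and in kidney it was 0.681 CPM. Its log2 difference in heart from the other tissues was 6.64 ± 0.33 (adjusted p = 9.39e-36), and in subscapular fat 4.64 ± 0.40 (adjusted p = 8.54e-19). Per base of transcript, Rpl3l made up a median of 33.8% of the sum of Rpl3 and Rpl3l over the 22 heart libraries (0 to 46.2%).

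Rpl3, the common form, was lower in heart than elsewhere, with a control median of 147 CPM (104 to 303) against 736 CPM in spleen (647 to 818), and a log2 difference of -0.60 ± 0.10 (adjusted p = 4.58e-07). The 2 heart libraries that stood apart held 0 and 1.95 CPM of Rpl3l and 245 and 512 CPM of Rpl3. The other 20 heart libraries held 16.4 to 97.1 CPM of Rpl3l, with 104 to 317 CPM of Rpl3. In subscapular fat the libraries at the 2 ends of the Rpl3l range also differed in muscle markers. The 5 libraries at 0 CPM held 11.8 to 25.3 CPM of 6 skeletal muscle markers, and the 5 with the most Rpl3l (51.2 to 127 CPM) held 37836 to 67561 CPM of them. The 12 between (0.52 to 33.4 CPM of Rpl3l) held 3.45 to 19589 CPM, so the lowest marker sum was in a library with Rpl3l counted. Whether the muscle in these libraries is part of the fat depot or was taken with it was not tested.

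**Figure D3:**
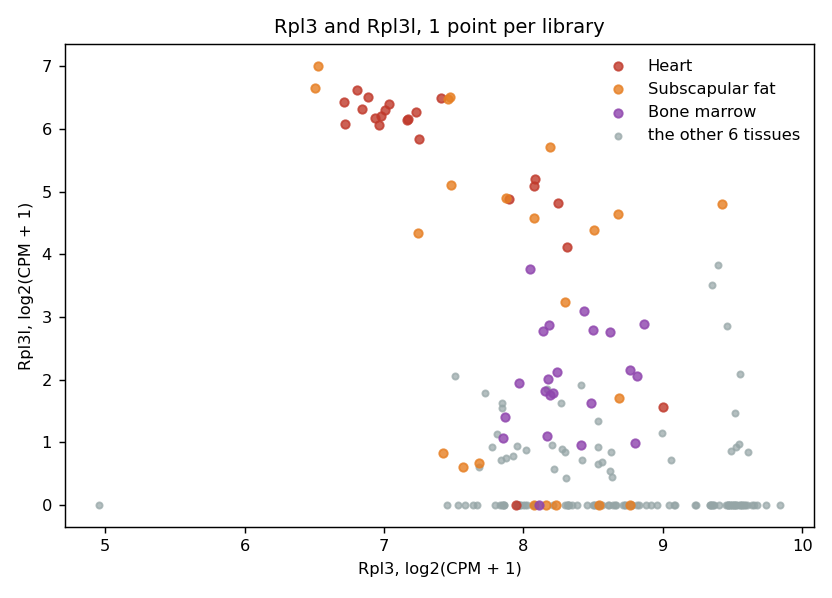
Rpl3l against Rpl3, both as log2(CPM + 1), with 1 point for each library. Heart and the subscapular fat libraries with the most muscle lie at the upper left, most libraries of gonadal fat, liver, spleen, skin and lung lie at 0 for Rpl3l, and those of marrow and kidney lie low (up to 12.5 and 3.17 CPM).

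The other paralogs differed in where they were highest. Rps27l, a relative of Rps27 induced by p53, was highest in liver (control median 75.9 CPM, 29.4 to 94.4) and lowest in spleen (19.1 CPM, 8.82 to 26.9), groups that did not overlap. Its log2 difference was 1.90 ± 0.13 in liver (adjusted p = 6.42e-27), 0.76 ± 0.13 in kidney and -1.48 ± 0.17 in spleen, while the members' medians were -0.40 in kidney and 0.58 in spleen. Rpl22l1, the paralog of the RNA-binding protein gene Rpl22, was highest in gonadal fat (0.71 ± 0.15, adjusted p = 3.51e-05) and lowest in kidney (-1.02 ± 0.18, adjusted p = 8.3e-07), with control medians of 45.9 and 9.95 CPM. Rpl7l1 had the narrowest spread of control means of the 76 members with a mean of at least 20 CPM, from 29.9 CPM in marrow to 51.1 CPM in spleen (1.71-fold). Rpl39l was at a median of 0.652 CPM in subscapular fat (0 to 9.28) and 0 in the other 8 tissues, and Rpl10l was counted in 1 control library, of marrow. The log2 difference of Rps4l was largest in subscapular fat (1.14 ± 0.18) and most negative in marrow (-2.54 ± 0.27).

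Genes used as references differed severalfold between tissues in CPM of usable counts. The control mean of Rplp0 in skin was 4.23 times that in liver, that of Rpl13a in spleen 4.15 times that in heart, and that of Rps18 in skin 2.57 times that in kidney. Rps6, the 40S protein phosphorylated by S6 kinase, spanned 3.14-fold, from kidney to spleen. Rpsa, the laminin receptor precursor, spanned 3.64-fold and Rpl32 3.44-fold, both from liver to spleen. Under this scaling the all-gene median against the other tissues was -0.82 log2 in liver, -0.62 in heart, -0.15 in kidney, 0.16 in skin and 0.40 in spleen. The part of this shift of all genes in the folds was not tested. Per kilobase of transcript the highest members on average over tissues were Rpl41 (710 CPM per kb), Rplp1 (611) and Rps14 (460.1), and Rps12, whose whole coding sequence is shared with copies, had 9.19.

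Copies took most of the count of several members. Rps12 was counted in 115 libraries, its copy Rps12-ps3 in 76 and Rps12l1 in 10, and exactly 1 of the 3 was counted in 179 libraries. All 10 libraries with Rps12l1 were from marrow (27.9 to 119 CPM there), and Rps12 was at 0 in each of the 10. Over all libraries their sum ran from 0 to 629 CPM, so adding the copies did not give an even level. Rpl10 held a mean of 13.3% of the sum of Rpl10 and its identical copy Rpl10-ps3, with 26.9% in marrow and 22.9% in skin, and Rps27 held a median of 2.33% of the sum of Rps27 and Rps27rt, with single libraries from 0 to 100%. Levels of Rps12, Rps27 and Rpl10, and the calls on them, describe the assigned counts only. The same limit holds for other members with fully shared 31-base words, among them Rpl28 and Rpl12 (100% each).

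The second comparison asked whether antibody treatment changed the members within each tissue. It did not pass the test for any member in any tissue. With edgeR's quasi-likelihood test and sex in the model, 0 of 77 to 80 members tested per tissue had an adjusted p below 0.05, against 0.00724% of all genes in marrow and 0.0% in each of the other 8 tissues. In the combined test over tissues with limma, 0 of 77 were called (0.0% of 7511 genes). No member was called in any of 156 fits that varied the scaling, filter, tool (limma-voom and DESeq2 included), libraries or tissues. At an unadjusted p below 0.05 there were 16 of 80 members in marrow, against 955 of 13812 genes. Marrow had 4 of 80 with scaling by usable counts. Lung had 6 of 79 (960 of 14018 genes), near the share of all genes. Subscapular fat had 4 of 80 (307 of 12230), gonadal fat 2 of 79 (656 of 12951) and spleen 1 of 80 (682 of 13066). The other 4 tissues had 0, and over tissues there were 6 of 77 (291 of 7511 genes). The standard error of a member's log2 difference had a median between 0.09 (spleen) and 0.18 (skin) in single tissues and 0.07 over tissues.

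With TMM scaling marrow and lung had the largest medians. With scaling by usable counts the largest was that of subscapular fat, at -0.23 (all genes -0.15, 78 of 80 members negative). Lung then had -0.17 (all genes 0.0022) and marrow -0.16 (all genes 0.07). In marrow with TMM scaling 74 of 80 members were lower with treatment, and the median log2 difference was -0.23 (all genes -0.01). The share of usable counts there was 1.40% ± 0.32 in controls (1.00 to 1.98%) and 1.27% ± 0.29 with treatment (0.912 to 1.74%), so the groups overlapped widely. Rps29, a zinc-binding 40S protein, had the smallest p of the lower members in marrow. Its levels were 51.4, 80.4 and 122 CPM (lowest, median, highest) in controls and 37.4, 58.8 and 101 CPM with treatment, and the difference of -0.46 ± 0.16 had an adjusted p of 0.657. The treated marrow had 7730 CPM of 5 marrow markers (median, 5983 to 12735) and the control marrow 9674 CPM (7769 to 12975), and the part of this in the result was not tested.

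In lung 77 of 79 members were lower with treatment, with a median of -0.19 (all genes -0.0025). The share was 1.51% ± 0.24 in controls and 1.35% ± 0.19 with treatment. Rps18 in lung had 95.4, 169 and 275 CPM in controls and 49.5, 134 and 196 CPM with treatment, and its difference of -0.53 ± 0.19 had an adjusted p of 0.7. Usable counts also differed between the arms in lung (median 1289195 in controls and 944626 with treatment), and the part of depth in this result was not tested. Without the library of mouse 68 the lung median was -0.16, and without that of control mouse 18 it was -0.11. Leaving out each mouse in turn gave -0.23 to -0.11 in lung and -0.31 to -0.17 in marrow.

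In the other tissues the medians were 0.13 in heart (75 of 80 higher), 0.08 in gonadal fat (71 of 79 higher), -0.08 in skin, -0.09 in subscapular fat, -0.02 in liver, -0.01 in kidney and 0.01 in spleen. Without the libraries that stood apart, the median in subscapular fat moved from -0.09 (70 of 80 negative) to 0.0015 (39 of 80 negative, without mouse 20) and that in skin to -0.01 (50 of 80 negative, without mouse 36). It became 0.09 in heart without mice 22 and 56 and 0.06 in gonadal fat without mouse 58. Over tissues the median was -0.08 (all genes -0.04), with 76 of 77 members negative, and Rpl10 had the smallest p (-0.27 ± 0.10, adjusted p = 0.87 by limma). This median became -0.02 (all genes -0.0026), with 57 of 77 negative, without the 6 libraries that stood apart, and -0.03 without skin. In heart, Rpl3l had a median of 66.3 CPM in controls and 73.4 CPM (1.95 to 90.4) with treatment, a difference of 0.07. None of the TOP, ribosome biogenesis, mitochondrial ribosomal or mTOR genes was called for treatment in any tissue.

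The third comparison set males against females, with 11 mice each and treatment in the model. In spleen the members were higher in males, from both subunits. There 41 of 80 were higher and 1 lower, against 1.88% and 2.11% of all genes tested, with a median log2 difference of 0.28 (all genes -0.01). Their share of usable counts ran from 1.89 to 2.81% in females (mean 2.51% ± 0.29) and from 2.87 to 3.61% in males (3.08% ± 0.21), without overlap. By subunit, 27 of 46 large subunit and 14 of 31 small subunit genes were higher.

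Rpl28, a large subunit gene, had the smallest p. Its spleen levels were 78.6, 91.3 and 111 CPM in females and 124, 150.4 and 176 CPM in males. The groups did not overlap, and the difference was 0.73 ± 0.07 (edgeR, adjusted p = 7.78e-07). Rpl35 in spleen ran from 84.4 to 149 CPM in females (median 107.9) and from 146 to 276 CPM in males (median 197), overlapping only at the edges, with a difference of 0.77 ± 0.09 (adjusted p = 9.24e-06). Rps24 ran from 420.1 to 741 CPM in females and from 848 to 1135 CPM in males, with a difference of 0.64 ± 0.09. Rps26, another gene mutated in Diamond-Blackfan anaemia, ran from 78.7 to 199.98 CPM in females and from 222 to 323 CPM in males, with a difference of 0.85 ± 0.12. In all, 9 of 80 members had every male above every female in spleen, against 0.153% of all genes tested (20 of 13066). In the other 8 tissues 0 members did. All genes tested there gave 203 of 12626 in kidney, 118 of 9988 in liver and from 3 (of 13812, marrow) to 11 (of 12951, gonadal fat) in the rest. In subscapular fat 1 of 80 members had every male below every female, against 0.106% of all genes tested there. The 1 member called lower in male spleen was Rpl22l1 (-0.61), with spleen medians of 44.0 CPM in females and 23.9 CPM in males.

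The number higher in spleen was 38 to 44 under other scalings, filters and tools and 34 to 43 with each mouse left out in turn. B cell markers in spleen summed to medians of 2068 CPM in females and 2237 CPM in males, and T cell markers to 133 and 135 CPM. Red cell markers (4 genes) summed to 2660 CPM in females (294 to 13355) and 7378 CPM in males (1182 to 12356), and macrophage markers (5 genes) to 487 and 567.8 CPM. The part of these in the member difference was not tested. Of the 18 TOP partners 3 were higher and 0 lower in male spleen, and of the 71 mitochondrial ribosomal genes tested 0 were called (edgeR, median 0.06).

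**Figure D4:**
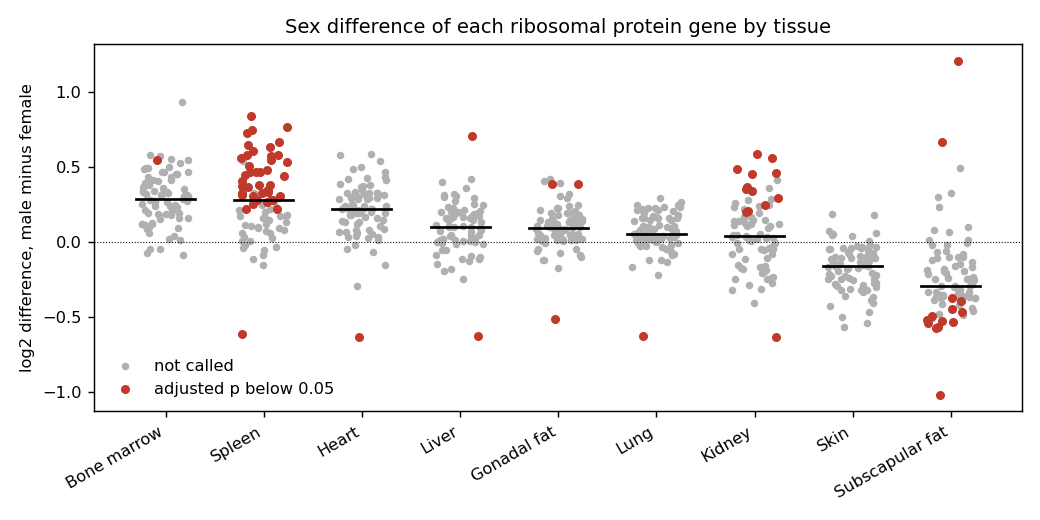
Male minus female log2 difference of each ribosomal protein gene in each tissue, with 11 mice of each sex; red points passed an adjusted p below 0.05 and black lines are medians. Spleen holds 41 red points above 0, and subscapular fat 12 below it.

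In kidney 12 of 77 members were higher and 1 lower in males, against 12.2% and 12.7% of all genes, so the share called higher was near that of all genes. Rpl28 (0.56 ± 0.09), Rps24 (0.37 ± 0.07) and Rps26 (0.46 ± 0.09), which led in spleen, were among the 12, as was Rpl17 (0.46 ± 0.08). Rpl28 ran from 49.8 to 79.4 CPM in female kidneys and from 62.1 to 104 CPM in male kidneys, which overlapped. Rpl22l1 was the lower member here too (-0.63). Scaling by usable counts left 6 higher and 7 lower. With each mouse left out in turn 10 to 14 were higher and 0 to 5 lower, with 5 lower without mouse 11, 4 without mouse 22 and 2 without mouse 58.

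Subscapular fat went the other way. There 2 of 80 members were higher and 12 lower in males, against 9.17% and 6.17% of all genes, with a median of -0.29 (all genes 0.04). Without female mouse 20, whose library stood apart, the median was -0.19, with 2 higher and 6 lower. Rpl3 ran from 175 to 685 CPM in females (median 362) and from 89.6 to 314 CPM in males (median 189), with a difference of -0.57 ± 0.16 (adjusted p = 0.0228). The 2 higher members were the paralogs Rps4l (1.21 ± 0.27, adjusted p = 0.00657), at 2.21 to 11.5 CPM in females and 5.10 to 19.6 CPM in males, and Rps27l (0.67 ± 0.19, adjusted p = 0.0243). The number lower ranged from 4 to 21 when each mouse was left out in turn (4 without mouse 68 or 70, 5 without mouse 55, 61 or 62, 6 without mouse 18, 20 or 36, 7 without mouse 6 and 21 without mouse 58). It was 1 without the low count filter and 46 with scaling by usable counts.

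These female and male pieces of subscapular fat also differed in composition. Ucp1, the uncoupling protein of brown fat, had a median of 359 CPM in females (0 to 1834) and of 956 CPM in males (0 to 9664), and Cidea of 59.8 and 193 CPM. Skeletal muscle markers had medians of 16876 CPM in females and 3157 CPM in males, with ranges of 11.8 to 54283 CPM and 3.45 to 67561 CPM. Mitochondrial ribosomal genes were higher in males for 32 of 78, with a median of 0.71. The part of these in the member difference was not tested, and Ucp1 and Cidea were chosen after their values were seen.

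The sex difference itself differed between spleen and subscapular fat. In a model over both tissues with an interaction of sex and tissue, 45 of 82 members had a male minus female difference that was higher in spleen and 3 had one that was lower, against 5.06% and 3.69% of all genes tested. The 3 were Rps4l (-1.55), Rps27l (-0.86) and Rpl22l1 (-0.85), all paralogs. Rpl28 had the smallest p (0.95 ± 0.15, adjusted p = 4.64e-05). With the mouse as a block in the model the numbers were 38 and 2, and without the libraries that stood apart 35 and 2.

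Rps27l was higher in males in 4 tissues. In liver it ran from 26.4 to 84.0 CPM in females (median 45.9) and from 61.4 to 94.4 CPM in males (median 80.2), with a difference of 0.71 ± 0.16 (adjusted p = 0.00256). The differences were 0.39 ± 0.10 in gonadal fat, 0.59 ± 0.12 in kidney and 0.67 ± 0.19 in subscapular fat, and -0.15 in spleen. In gonadal fat 2 of 79 members were higher (Rps27l and Rpl39) and 1 lower, against 8.32% and 6.09% of all genes. In liver 1 of 77 was higher and 1 lower, against 12.4% and 14.6%.

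**Figure D5:**
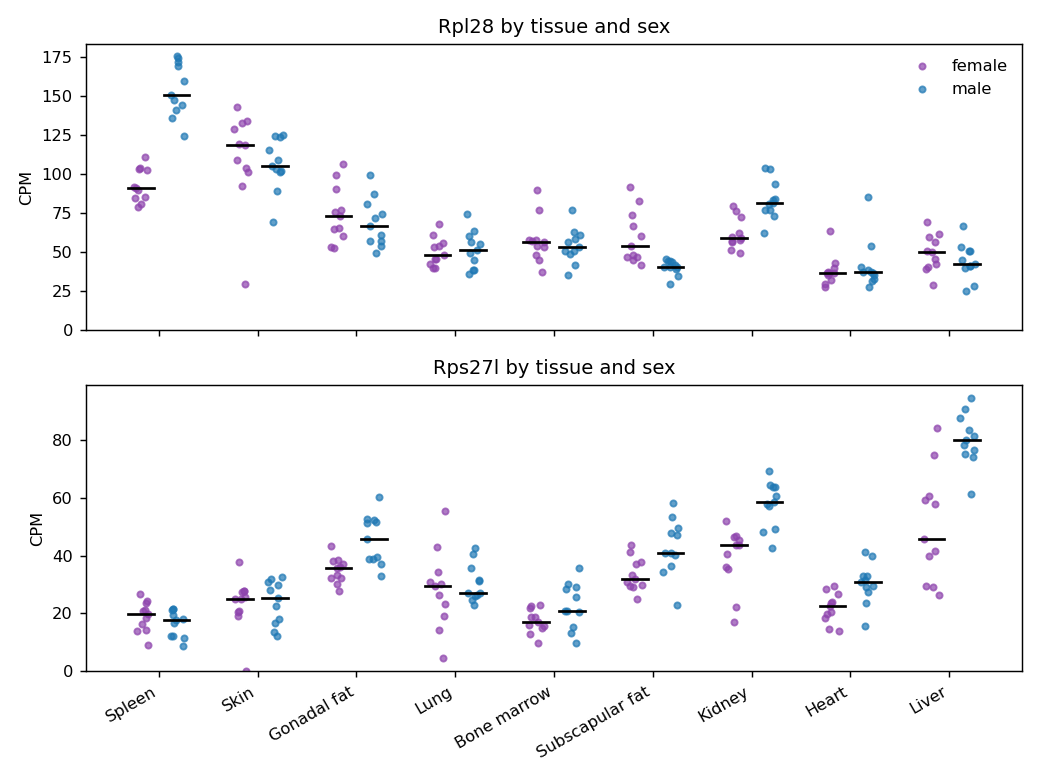
CPM of Rpl28 and Rps27l in each library by tissue and sex, with medians as black lines. Rpl28 is higher in males in spleen (medians of 91.3 CPM in females and 150.4 CPM in males) and kidney, and Rps27l is higher in males in liver (45.9 and 80.2 CPM).

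In the remaining tissues few members passed. In heart 0 of 80 were higher and 1 lower (0.138% and 0.0648% of all genes), and in lung 0 of 79 were higher and 1 lower (0.0285% and 0.0785%). In marrow 1 of 80 was higher and 0 lower (0.355% and 0.311%). The marrow gene was Rps25 (0.55 ± 0.13, adjusted p = 0.0489), at 141 to 271 CPM in females and 158 to 357 CPM in males. In skin 0 of 79 were called (0.204% and 0.133% of all genes), and limma-voom also called 0 after adjustment. By edgeR 8 of 79 had an unadjusted p below 0.05, near the share of all genes (1063 of 11254). Marrow and heart had positive medians (0.29 and 0.22, with 76 and 74 of 80 positive), and skin a negative one (-0.16). Without mouse 36 the skin median was -0.22, 75 of 80 were negative and 30 had an unadjusted p below 0.05. There 1 was called lower, against 27 of 11736 genes.

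Within a tissue the members moved together from library to library. The median correlation of a member's log2 CPM with the mean of the other members was 0.85 in marrow, 0.86 in gonadal fat, 0.86 in heart, 0.78 in kidney, 0.70 in liver, 0.84 in lung, 0.81 in spleen and 0.92 in subscapular fat (22 libraries each), and 0.77 in skin over the 21 libraries other than that of mouse 36. All members share each library's depth and composition, so these values are a description. The members with the lowest correlation were Rpl28 in kidney (-0.31) and lung (-0.02), Rpl10 in marrow (-0.08), spleen (-0.04) and subscapular fat (0.41), Rpl5 in liver (0.01) and gonadal fat (0.37), Rps2 in heart (0.18) and Rps16 in skin (-0.08). By snoRNA content, 16 of 30 members with a snoRNA inside and 25 of 50 without were higher in male spleen, with medians of 0.29 and 0.28. In control spleen against the other tissues, 27 of 30 with a snoRNA inside and 35 of 52 without were higher, with medians of 0.69 and 0.43. No paralog holds a snoRNA, so the 52 include the 5 paralogs tested (0 higher, 3 lower, median -1.14). The part of the paralogs in this difference was not tested.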

How the data were processed

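Total RNA from whole tissues of 22 mice was extracted, treated with DNase and made into 198 stranded total RNA libraries, per the labels' protocols. The deposited values are whole-number counts per gene, made by the authors, and FastQC 0.11.5, Salmon (version not given) and mm10 are named in the submitters' processing notes. Whether estimated counts were rounded is not given in the sources used here. CPM was computed here over counts outside the 9 abundant features. Tests used edgeR 4.0.16 (quasi-likelihood, TMM, Benjamini-Hochberg over all genes, adjusted p below 0.05), limma 3.58.1 over tissues, and DESeq2 1.42.0 as an alternative, in R 4.3.3. The treatment and sex fits in marrow and spleen, the spleen tissue contrast and the limma fit over tissues were tested on simulated counts. Same-numbered samples pair across tissues because the labels give them to the same mouse, and arms share no mouse. Annotation was GENCODE M21, with 68 of 88 members at the same identifier version.

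Genes were named by a written rule: for treatment and sex, the members past the threshold (the 10 with the smallest p) or the smallest p in each direction; for tissue, up to 3 per direction by log2 difference; and the paralog pairs, reference genes and members with the largest or smallest spread. Ucp1, Cidea and members named for correlation, deviation or per-kilobase level were added after values were seen. The members and lists were chosen with earlier results of these data known. No library was left out of the main tests, and 1 member in the counts is not reported here by name. Total counts of 4138419 to 19517950 per library and usable counts of 33377 to 4694597 set the precision. Alternatives varied scaling, filter, tool, copies, block and libraries.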

Additional observations from a re-analysis of the deposited data

Results flagged for a closer look

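Among the 10 treated mice of each tissue, 72 groups of values were examined for a sample far from the others, and 17 were picked out. Chance alone picks out about 1 in 20 groups. The skin library of mouse 36 had 33377 usable counts and lay far below the others in the members' share (0.168% against a median of 2.31%), Rpl3 (29.96 CPM), Rpl22 (29.96 CPM) and Rpl28 (29.96 CPM). The heart library of mouse 56, with few heart markers, lay above the others in the share (1.905%) and Rpl3 (511.5 CPM).

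In lung, mouse 9, the lung library with the fewest usable counts (424611), was low in Rpl22l1 (9.42 CPM) and Rps27l (4.71 CPM) and high in Rps4l (25.91 CPM). Rpl3l was high in lung of mouse 33 (2.749 CPM). In liver, Rpl3 was high in mouse 23 (332.4 CPM), Rpl3l in mouse 33 (2.086 CPM) and Rps4l in mouse 58 (20.48 CPM). Rpl3l was also high in gonadal fat of mouse 23 (1.213 CPM) and skin of mouse 9 (10.34 CPM), Rps4l in marrow of mouse 70 (3.769 CPM) and Rpl22 in spleen of mouse 58 (214.9 CPM).

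The sex difference of 45 members was higher in spleen than in subscapular fat by a test of the interaction. Copies outside the member list carried counts, with means over the libraries of 330.1 CPM for Rpl10-ps3, 201.7 CPM for Rps27rt and 84.14 CPM for Rps12-ps3.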

How the results depend on the processing

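No member was called for treatment under any alternative. Named members lost their call in 58 alternative values for sex and 21 for tissue, kept it in 907 and 529, and reversed in 0. Scaling by usable counts turned the sign of the tissue medians in heart and lung, and the balance of higher against lower calls in lung, heart, liver and, for sex, kidney (values below). The cause of the changes below was not tested. For sex, members called higher in marrow were 0 with the arm left out, with limma-voom and under both scalings by usable counts. Scaling by usable counts gave for sex 0 lower in heart, 6 higher and 7 lower in kidney, 2 lower in liver, and 1 higher and 46 lower in subscapular fat. With mitochondrial genes also left out of the library size it gave 0 lower in heart, 6 and 5 in kidney, and 1 and 41 in subscapular fat. RLE scaling gave 2 higher in liver. Limma-voom gave 2 lower in kidney and 3 higher in liver. Without the low count filter sex gave 0 lower in heart and lung, 7 higher in kidney, 3 higher in liver and 1 lower in subscapular fat. Adding pseudogene counts gave 2 lower in spleen. Skin had 1 lower without the 3 libraries in doubt and without the 6 that stood apart, and subscapular fat 6 lower without the 6. With each mouse left out, 0 to 5 were lower in kidney, and 1 to 2 higher and 4 to 21 lower in subscapular fat.

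For tissue, scaling by usable counts gave medians of -0.10 in marrow, -0.56 in heart, -0.73 in liver, 0.11 in lung and 1.08 in spleen. The numbers were 29 higher in marrow, 1 and 75 in liver, 40 higher and 2 lower in gonadal fat, 22 and 6 in lung, 1 and 71 in heart, 2 higher in kidney, and 4 and 14 in subscapular fat. All genes moved too: of 17968 tested, 2670 were higher and 11658 lower in liver, and 3151 and 10300 in heart. In gonadal fat 6729 genes were higher and 2545 lower, in lung 8035 and 1668, and in marrow 8080 and 6199. With mitochondrial genes also left out, the members' medians were -0.10 in marrow, -0.35 in heart, -0.76 in liver, 0.0443 in lung and 1.01 in spleen. The numbers of members were then 29 higher in marrow, 3 and 58 in heart, 29 higher and 2 lower in gonadal fat, 1 and 75 in liver, 13 and 9 in lung, and 4 and 12 in subscapular fat. RLE scaling gave 20 higher in marrow, 19 lower in liver, 2 higher in lung and 9 lower in subscapular fat. All 22 mice with the arm as a term gave 42 higher in gonadal fat, 28 lower in liver, 2 higher in lung and 16 lower in subscapular fat. Summing identifiers by name gave 8 higher and 17 lower in heart and 4 lower in subscapular fat. Limma-voom gave 5 lower in subscapular fat. Without the filter there were 2 lower in gonadal fat, 5 higher and 15 lower in liver, 2 and 17 in lung, and 1 lower in subscapular fat. Pseudogene counts added gave 15 lower in liver, 9 higher in heart, 2 and 21 in lung, 2 higher in kidney, and 4 lower in subscapular fat. The replicate block, which pairs tissues of a mouse, gave 8 higher and 15 lower in liver, 2 and 18 in lung and 9 and 15 in heart. It gave 2 and 62 in kidney, 12 and 3 in gonadal fat and 7 and 4 in subscapular fat. Without the libraries in doubt there were 17 lower in heart and 4 lower in subscapular fat, and without those that stood apart 17 and 14.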
